A study of Rattus norvegicus with 134 samples.

Results

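miR-205 and miR-203b are 2 microRNA of rat tissue, measured here under the names rno-miR-205 and rno-miR-203b-3p, which are 2 of the names in the deposited table (175 of them kept by a read filter in the kidney, 176 in the liver and 163 in the heart). They were chosen by measured values: miR-205 was picked with its levels in the livers at the time of maximum core temperature already known, so that this liver contrast, and the order of the tissues, are given below as a description with no test. Small RNA sequencing libraries came from heat-stressed and control Fischer rats (the inbred strain F344). Heat-stressed rats were first kept in a floor-standing incubator and then heated in it at 37.0 °C up to a core temperature of 41.8 °C (Tc,max). They were killed at Tc,max, or were moved to a cage at 22.0 °C and killed 24 h or 48 h later. By the sample labels, the time-matched controls stayed at housing temperature and never entered the incubator, so that heating and the incubator cannot be told apart; the methods of the study instead describe controls kept in an incubator at room temperature. At Tc,max there were 6 heat-stressed and 6 control livers, 5 and 5 kidneys, and 6 and 5 hearts. At 24 h there were 6 heat-stressed and 4 control kidneys, 6 and 6 hearts, and 1 control liver. At 48 h there were 4 heat-stressed and 5 control kidneys, and 6 and 6 hearts. RNA came from a small piece cut from each frozen organ, and the part of the organ is not given in the sources used here. Organ lesions were scored by animal in the study, which saw heat-related ones only at 48 h, in part of the heat-stressed rats. The scores read here carry no rat numbers, so that heat-stressed rats with and without lesions form 1 group at 48 h.

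MicroRNA are short RNA that guide a silencing complex to messenger RNA, mostly by pairing of their seed, bases 2 to 8, with the 3′ untranslated region of the target. miR-205 is known from stratified and other barrier epithelia, among them skin, where it is abundant, and it shares with the miR-200 family the repression of the transcription factors Zeb1 and Zeb2, which switch epithelial genes off. miR-203 is known from skin, where it accompanies the exit of keratinocytes from the cell cycle and represses the factor p63. In the rat, miR-203a and miR-203b are read from opposite strands of the same DNA. The measured member, miR-203b-3p, has another seed than miR-203a-3p. The skin role of miR-203 can thus not be taken over for it, and was not tested here.

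The sequences are shown because the seeds set the 2 members apart and because the miR-203 arms overlap. They are RefSeq mature sequences on the rat assembly GRCr8, in capitals at the seed. miR-205 lies at chr13:107564588-107564610 on the minus strand, in the gene Mir205, which overlaps no other annotated gene. miR-203b-3p lies at chr6:137020716-137020737 and miR-203b-5p at chr6:137020756-137020775, both on the minus strand in the gene Mir3545. miR-203a-5p lies at chr6:137020718-137020738 and miR-203a-3p at chr6:137020756-137020777, both on the plus strand in the gene Mir203. These 2 genes overlap each other and lie between Aspg and Kif26a.
rno-miR-205: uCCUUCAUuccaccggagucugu
rno-miR-203b-3p: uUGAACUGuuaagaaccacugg
rno-miR-203b-5p: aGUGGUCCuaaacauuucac
rno-miR-203a-5p: aGUGGUUCuuaacaguucaac
rno-miR-203a-3p: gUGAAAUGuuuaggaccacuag
No other mature rat miRNA in the RefSeq table carries the seed of any of these 5. The hairpins of miR-203b and miR-203a share 97 bases on opposite strands. Over 20 bases, miR-203b-3p is the exact reverse complement of miR-203a-5p, and miR-203b-5p of miR-203a-3p. Whether the mapping used the strand of a read is not given in the sources used here, and was not tested. The columns with no arm, miR-203a and miR-203b, are named for these genes on opposite strands. They held the same reads in 56 of 77 libraries and differed by at most 2 reads in the rest. They are thus not separate measures. Without strand, reads of miR-203b-3p and of miR-203a-5p, for which the table has no column, could not be told apart, so that the miR-203b-3p values below may hold both.

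The values are log2(CPM + 1), where CPM scales the reads of a name to a fixed library size, so that a difference of 1 is close to a 2-fold change for a name far above 1 CPM, and less than the true change for a low one. Whole reads were recovered from the step of 1 read in each library. Library totals were 126700 to 379444 reads in the 13 livers, 355221 to 2224069 in the 29 kidneys and 126279 to 879244 in the 35 hearts. Each tissue was pooled and loaded on a lane of its own, so that tissue and lane cannot be told apart. Both libraries of the heat-stressed rat 307 (48 h) stood apart. The library labelled heart of rat 307 held 323 CPM of the 8 heart muscle names (miR-1, miR-133, miR-208 and miR-499), against 28323 to 121478 CPM in the 34 other hearts, and 8550 CPM of the miR-200 family, against 31.8 to 170.0 CPM. Its kidney library held 173 CPM of miR-182 of the miR-183 cluster, against 3829 to 7911 CPM in the 28 other kidneys. It held 271293 CPM of the kidney and gut names, within their 240367 to 282223 CPM, but livers held 200026 to 240216 CPM of these names. Its 8 squamous epithelium names (miR-31, miR-203 and miR-205) summed to 223 CPM, against 1535 to 3490 CPM. Its blood cell names summed to 210 CPM, against 753 to 2155 CPM, and its miR-200 family to 9225 CPM, against 5151 to 9215 CPM. The heart library of rat 307 held 106587 CPM of the kidney and gut names, against 7969 to 31054 CPM in the other hearts. Liver libraries held 13878.5 to 21726.7 CPM of the 3 hepatocyte names, those of the miR-122 locus, against 0 to 291 CPM in the 28 kidneys without rat 307. In tissue samples, fewer cells of a type and less RNA per cell cannot be told apart.

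Both members were highest in the kidney, lower in the liver and lowest in the heart. miR-205 had a median of 7.84 in the kidneys (3.42 to 10.53), 4.92 in the livers (0 to 7.57) and 2.63 in the hearts (0 to 6.29). Its ranges overlapped: 15 of 29 kidneys lay above every liver, and 3 of 13 livers above every heart. The highest heart value is the library of rat 307; without this rat the hearts reached 4.03, and 8 of 13 livers and 27 of 28 kidneys lay above every heart. miR-203b-3p had a median of 8.42 in the kidneys (4.00 to 9.32), 5.53 in the livers (3.82 to 6.50) and 1.61 in the hearts (0 to 5.34). Of the 29 kidneys, 28 lay above every liver and every heart for miR-203b-3p, the exception being rat 307. Even in the kidney they were middling names, 131st (miR-205) and 113th (miR-203b-3p) from the top of all names by median level.

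**Figure D1:**
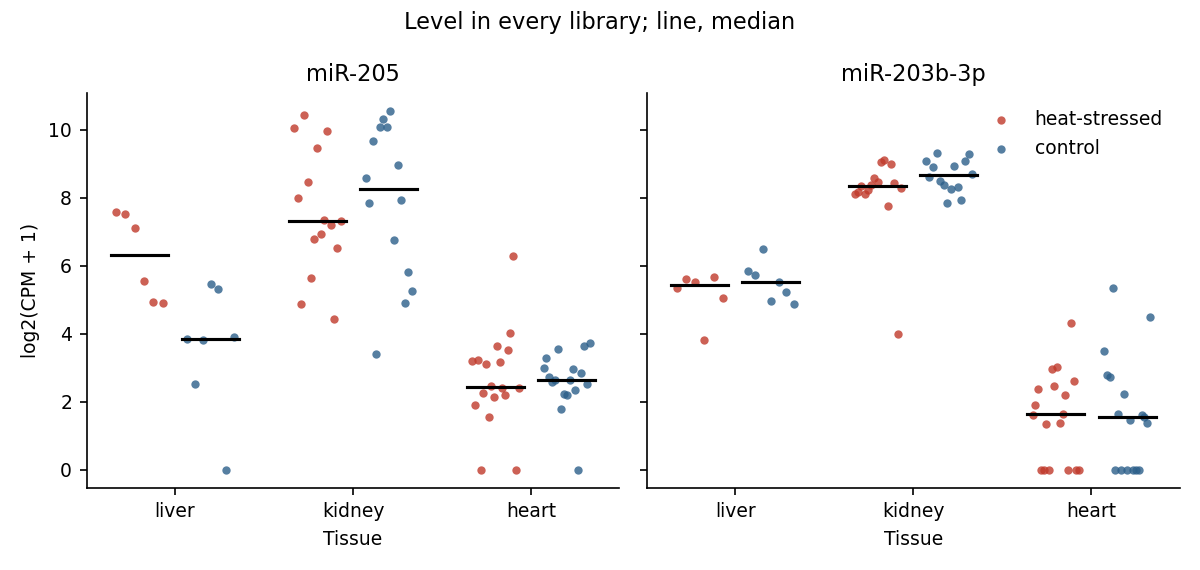
Levels of miR-205 (left) and miR-203b-3p (right) in log2(CPM + 1) in every liver, kidney and heart library; red points, heat-stressed rats, blue points, controls, black lines, medians. The medians of all kidneys are 7.84 and 8.42, and the kidney points of miR-205 spread from 3.42 to 10.53, whereas those of miR-203b-3p, rat 307 at 4.00 aside, lie between 7.77 and 9.32.

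In the liver at Tc,max, miR-205 was higher on average in heat-stressed rats than in controls, and the groups overlapped. This is the contrast by which it was chosen. It lay at 4.90 to 7.57 (median 6.33) in the 6 heat-stressed livers, against 0 to 5.45 (median 3.88) in the 6 controls. The means were 6.26 ± 1.27 in heat-stressed livers and 3.51 ± 2.03 in control livers (SD, n = 6 each), a difference of 2.75. Of the heat-stressed livers, 4 of 6 lay above every control, and 4 of 6 controls lay below every heat-stressed liver; of 176 names, 0 (0%) lay higher and 1 (0.568%) lower in every heat-stressed liver. This difference was the largest of the 176 names kept by the read filter, whose median difference was -0.08 and of which the next, miR-668, differed by 1.28. These were also the names that varied most within groups. The pooled within-group SD of miR-205 in the liver was 1.69, the 2nd largest of the 176, and that of miR-668 was the largest, 1.80, beside a median of 0.24.

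These values rest on few reads. The heat-stressed livers held 7 to 34 reads of miR-205 each (113 in all), against 0 to 7 reads in the controls (20 in all). Of the 113 reads, 91 came from rats 280, 281 and 282, with 24, 34 and 33 reads. These 3 livers had 136 to 189 CPM, whereas the other 3 heat-stressed livers, rats 283, 284 and 285, had 28.8 to 46.0 CPM, against 0 to 42.7 CPM in the controls. In the control rat 293 no read was found among 166040, which allows up to 18.1 CPM when 3 reads are taken as the limit, or 22.2 CPM at the upper end of the exact 95% Poisson interval. Summed over the group, miR-205 had 92.2 CPM in heat-stressed livers (exact 95% Poisson interval 76.0 to 111) and 17.6 CPM in control livers (10.7 to 27.1). Their ratio was 5.25 (exact interval 3.24 to 8.92). Such intervals cover counting error only, not the spread between rats, and reads made by PCR are not independent molecules. As miR-205 was chosen by this contrast, the intervals are no test of it. Without any 1 of the 12 livers the difference lay between 2.05 and 3.14, the lowest without the control rat 293. The 1 control liver at 24 h had 5 reads, 3.83 on the log2 scale, within the range of the controls at Tc,max.

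miR-203b-3p did not separate the same livers. It lay at 3.82 to 5.68 (median 5.44) in the heat-stressed livers, against 4.87 to 5.84 (median 5.37) in the controls, with 2 to 12 reads against 4 to 17. The means were 5.18 ± 0.70 in heat-stressed livers and 5.36 ± 0.40 in control livers (SD, n = 6 each), a difference of -0.19. Summed reads gave 39.2 CPM in heat-stressed livers (28.9 to 51.9) and 43.9 CPM in control livers (32.6 to 57.9), a ratio of 0.892 with an exact interval of 0.587 to 1.35. The control liver at 24 h had the most, 34 reads or 6.50. Across the 13 livers its level had Pearson r = 0.63 and Spearman rho = 0.66 with the log2 of total reads, and that of miR-205 had r = -0.16 and rho = -0.41.

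**Figure D2:**
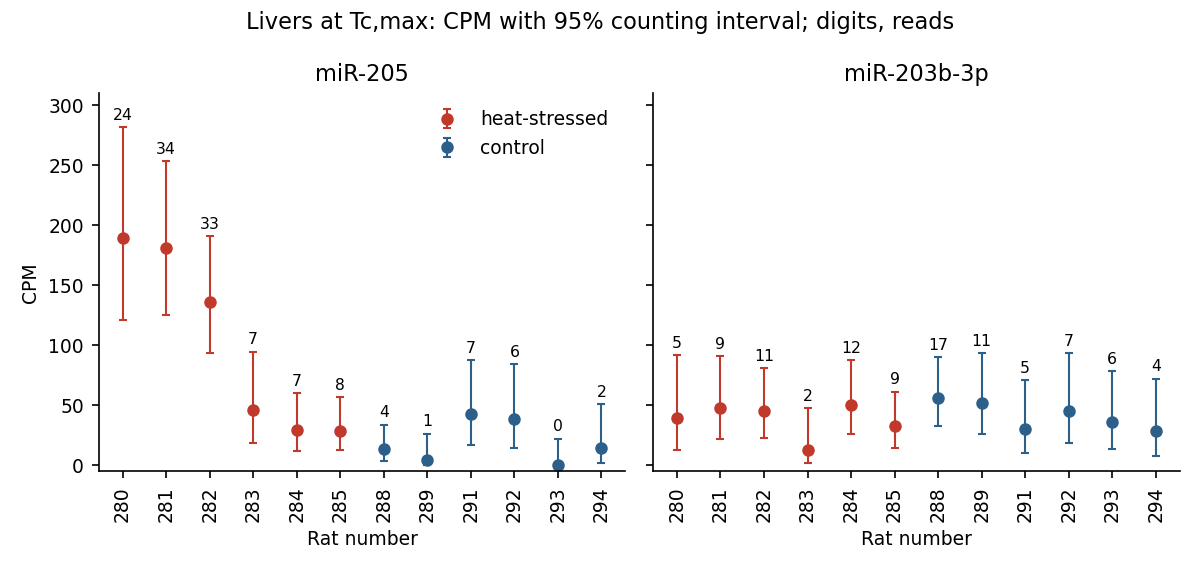
CPM of miR-205 (left) and miR-203b-3p (right) in each liver at Tc,max, by rat number; red, heat-stressed, blue, control, bars, exact 95% Poisson intervals of the reads, whose number stands above each bar. For miR-205, rats 280, 281 and 282 stand at 136 to 189 CPM and the other 9 livers at 0 to 46.0 CPM; for miR-203b-3p the groups overlap.

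The summed levels of the epithelial lists overlapped between the liver groups. The 8 names of the squamous epithelium list (miR-31 and miR-203 names and miR-205 itself) summed to 1443 to 2172 CPM in heat-stressed livers, against 1632 to 2362 CPM in controls. As miR-205 had 0 to 189 CPM in the livers, this sum cannot show whether names of a low level went with it. The sum and the counts of this list also hold miR-203a and miR-203b, which are not separate measures. The 5 miR-200 family names summed to 210.3 to 420 CPM in heat-stressed livers, against 181 to 470 CPM in controls. Of the 8, 3 had a higher mean in heat-stressed livers and 5 a lower one (median difference -0.02), and of the 5 miR-200 names 1 and 4 (median -0.33), beside a median of -0.08 over all 176 names. The hepatocyte names summed to 13878.5 to 16678.9 CPM in heat-stressed livers, against 14105 to 20459.5 CPM in controls. The part of other cells in the liver values of miR-205 was not tested. By the rule for likeness, the names that followed miR-205 most over the 13 livers were miR-668 (r = 0.51), miR-3557 (0.48), miR-219b (0.48), miR-219a-2 (0.47) and miR-378a (0.46). Those that followed miR-203b-3p were miR-29c-3p (0.77), miR-30e-3p (0.73), miR-29a-3p (0.71), miR-101a-3p (0.70) and miR-101b-3p (0.60). These points share libraries and depth, and the correlations are descriptions.

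In the kidney, where both members had enough reads (median 235 for miR-205 and 468 for miR-203b-3p), no heat comparison of either passed the test across all names. limma called 0 of 175 names (0%) at each of the 3 time points, testing against a small fold change (treat) at an FDR of 0.05. The study analysed the 48 h rats with lesions apart, over more names and by another method. It called kidney miRNA in these rats and none in those without lesions, a split that cannot be made here. At an unadjusted p under 0.05, limma had 0 names at Tc,max, 0 at 24 h and 29 at 48 h, and exact permutation tests had 65, 4 and 20. These counts are not alike, since the limma p were against the small fold change and the permutation p against no difference. With no fold cutoff limma had 13, 1 and 67 names, and again called 0 at each time point. limma's voom on the recovered reads also called 0 at each time point, with 0, 0 and 22 names at an unadjusted p under 0.05.

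miR-205 varied widely between kidneys of the same group. At Tc,max it had 4.87, 8.0, 8.45, 10.05 and 10.43 in heat-stressed kidneys, against 3.42, 8.58, 9.65, 10.08 and 10.30 in control kidneys. Each group holds 1 low kidney, rat 282 with 10 reads and rat 292 with 11 reads, and the groups overlapped almost fully. The means were 8.36 ± 2.21 in heat-stressed kidneys and 8.41 ± 2.87 in control kidneys (SD, n = 5 each), a difference of -0.05 whose sign turned under 3 of the other settings and under 5 of 10 omissions of 1 kidney (limma 95% interval -2.47 to 2.38, adjusted p = 0.999).

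At 24 h, miR-205 lay at 5.65 to 9.97 (median 7.14) in 6 heat-stressed kidneys, against 4.89, 5.26, 5.81 and 7.84 in control kidneys. The averages were 7.69 ± 1.67 in heat-stressed kidneys (SD, n = 6) and 5.95 ± 1.31 in control kidneys (SD, n = 4). The difference of 1.74 was the highest of the 175 names and did not pass (limma 95% interval -0.74 to 4.21, adjusted p = 0.999; exact permutation p = 0.129). Against the controls of all 3 time points pooled it was -0.17.

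At 48 h the difference had the opposite sign. miR-205 had 4.42, 6.51, 7.19 and 7.31 in heat-stressed kidneys, against 6.77, 7.93, 8.95, 10.07 and 10.53 in control kidneys. Of the heat-stressed kidneys, rats 305 and 309 lay above the lowest control, rat 313; 3 of 175 names (1.71%) lay lower in every heat-stressed kidney at 48 h. The mean was 6.36 ± 1.34 in heat-stressed kidneys (SD, n = 4), against 8.85 ± 1.54 in control kidneys (SD, n = 5). The difference of -2.49 did not pass limma (95% interval -5.07 to 0.08, adjusted p = 0.26). Its exact two-sided permutation p was 0.0476, which became 0.417 when adjusted over the 175 names; the smallest p these 4 and 5 kidneys allow is 0.00794. The median difference of all names at 48 h was -0.43, and -0.01 without rat 307, without which that of miR-205 was -2.55 (limma adjusted p = 1.0). Pooled controls gave -1.51.

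The means of the controls themselves lay at 8.41, 5.95 and 8.85 at Tc,max, 24 h and 48 h, a wider span than the means of the heat-stressed kidneys at 8.36, 7.69 and 6.36. The heat effects at 48 h and 24 h differed by -4.23 (95% interval -7.80 to -0.66), with an unadjusted limma p of 0.0220 and an adjusted p of 0.44. limma called 0 of 175 names (0%) for this difference, with 14 at an unadjusted p under 0.05. The other 2 differences of miR-205 between time points, 1.79 for 24 h against Tc,max and -2.45 for 48 h against Tc,max, had adjusted p of 0.99 and 0.62.

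**Figure D3:**
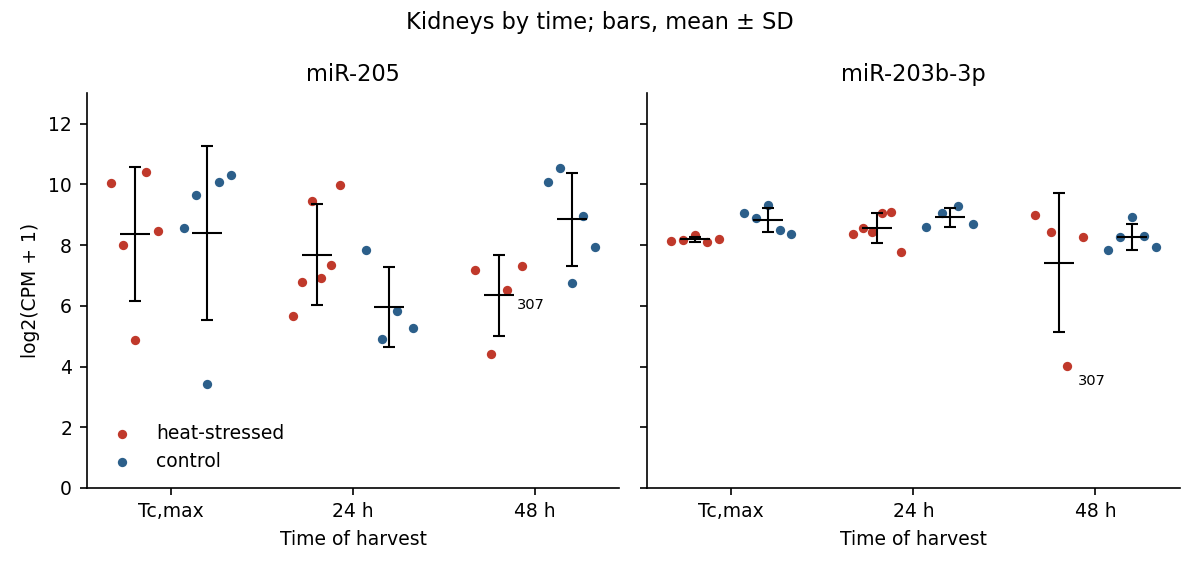
Kidney levels of miR-205 (left) and miR-203b-3p (right) in log2(CPM + 1) by time of harvest; red points, heat-stressed rats, blue points, controls, bars, mean ± SD, with rat 307 marked. The mean of miR-205 is 7.69 in heat-stressed and 5.95 in control kidneys at 24 h, but 6.36 and 8.85 at 48 h, with SD of 1.31 to 2.87 throughout.

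miR-203b-3p was steadier. At Tc,max it had 8.10, 8.12, 8.17, 8.22 and 8.33 in heat-stressed kidneys, against 8.38, 8.49, 8.90, 9.07 and 9.32 in control kidneys. Every heat-stressed kidney lay below every control, by 0.05 at the nearest. The means were 8.19 ± 0.09 in heat-stressed kidneys and 8.83 ± 0.39 in control kidneys (SD, n = 5 each). The exact two-sided permutation p of this difference of -0.65 was 0.00794, the smallest that 5 against 5 allow, and 0.0514 adjusted over the 175 names. As 27 names shared this smallest p, the adjusted value was set by the number of ties. By limma the difference of -0.65 did not pass (95% interval -1.78 to 0.49, adjusted p = 0.999). Without rat 307, whose kidney library widens the spread shared by all groups, the interval was -1.11 to -0.18 and the adjusted p by limma was 1.0. The interval takes no account of the fold cutoff and leaves out 0, whereas the p is against that cutoff and adjusted over all names. Separation of the 2 groups was common at Tc,max: 19 of 175 names (10.9%) lay lower in every heat-stressed kidney, and 8 (4.57%) lay higher. The other columns of the miR-203 locus did not share it. Their groups overlapped, with differences of -0.20 for miR-203a-3p, -0.16 for miR-203b-5p and -0.17 for both miR-203a and miR-203b. The heat-stressed libraries of that time point were also the shallower ones, 355221 to 1247747 reads (median 595986), against 680596 to 1329684 (median 1137894) in controls. Over the 28 kidneys without rat 307, miR-203b-3p had r = -0.03 with the log2 of total reads.

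At 24 h, miR-203b-3p lay at 7.77 to 9.09 (median 8.51) in heat-stressed kidneys, against 8.61, 8.69, 9.07 and 9.28 in control kidneys. The averages were 8.55 ± 0.49 in heat-stressed kidneys (SD, n = 6) and 8.91 ± 0.31 in control kidneys (SD, n = 4). The difference of -0.36 did not pass (limma 95% interval -1.52 to 0.80, adjusted p = 0.999; exact permutation p = 0.238).

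At 48 h, 1 library decided the value of miR-203b-3p. It had 4.00, 8.27, 8.42 and 9.0 in heat-stressed kidneys, against 7.84, 7.94, 8.27, 8.31 and 8.93 in control kidneys. The low value is rat 307, with 8 reads. The difference was -0.83 with this rat, at an adjusted p of 0.44 by limma (exact permutation p = 0.730). Without it the difference was 0.31, with a limma 95% interval of -0.22 to 0.84. The mean was 7.42 ± 2.30 in heat-stressed kidneys (SD, n = 4), or 8.56 ± 0.39 without rat 307 (n = 3), against 8.26 ± 0.43 in control kidneys (SD, n = 5). None of the 3 differences of the miR-203b-3p effect between time points passed (adjusted p of 0.73 to 0.99). That of 48 h against Tc,max was -0.19 with rat 307 and 0.95 without it (limma adjusted p = 0.18). Leaving out rat 307, limma called 1 of 175 names for that difference, neither member.

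**Figure D4:**
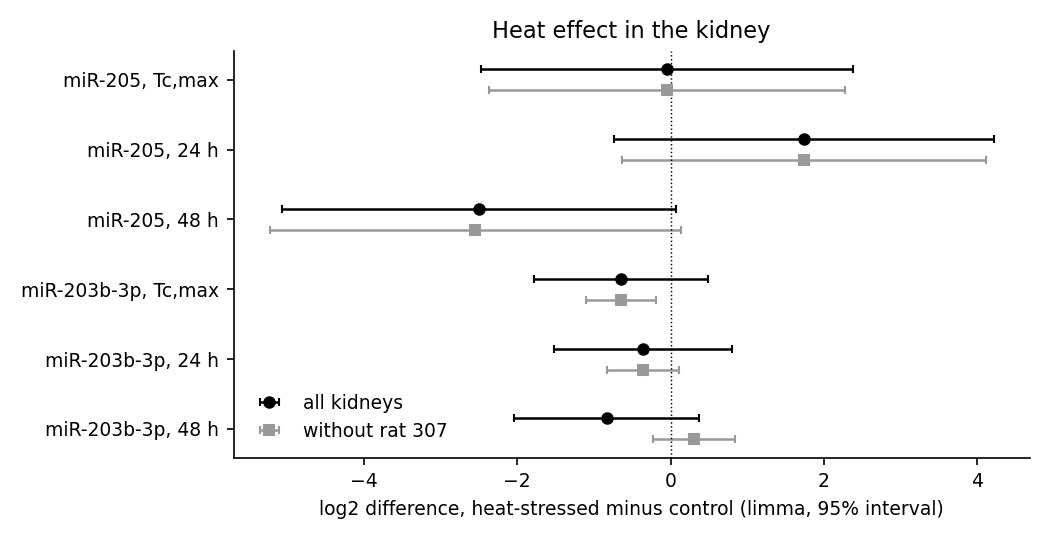
Heat effect on each member in the kidney, as the log2 difference of heat-stressed minus control kidneys with limma's 95% interval; black circles, all kidneys, grey squares, without rat 307. For miR-205 the 3 intervals are wide and hold 0; for miR-203b-3p at 48 h the difference is -0.83 with rat 307 and 0.31 without it.

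miR-205 was among the names that differed most between kidneys of the same group. Its within-group SD, pooled over the 6 groups, was 1.94, the 4th largest of 175 names, beside a median of 0.47 over all names; the largest was that of miR-122-5p, at 2.14. Without rat 307 it was 1.98, the 3rd largest, beside a median of 0.22. From lowest to highest kidney, both controls, miR-205 ran over a 153-fold range, 9.67 to 1482 CPM. Depth moved little with it (r = 0.15 with the log2 of total reads, 29 kidneys). For miR-203b-3p the pooled SD was 0.90, and 0.38 without rat 307.

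Other names followed miR-205 from kidney to kidney; this look within the kidney was chosen after its values were seen. Over the 28 kidneys without rat 307, the most alike of the 174 other names were miR-141-3p, a miR-200 family member (r = 0.82), miR-31b (0.82), miR-31a (0.81) and miR-31a-5p (0.78), names of the miR-31 gene, which is active in epidermis. In these data miR-31a-5p was higher in the livers. At Tc,max its means were 9.45 in heat-stressed and 9.44 in control livers, against 6.52 and 6.43 in the kidneys. With rat 307 included, r was 0.50 for miR-141-3p, 0.75 for miR-31a and 0.64 for miR-31a-5p. miR-31a followed miR-205 in heat-stressed kidneys (r = 0.66, n = 15, or 0.77 without rat 307) and in controls (r = 0.84, n = 14). On deviations from the group means it was 0.79 over the 28 kidneys. In the kidney with the most miR-205, control rat 312, miR-205 lay at 10.53, miR-31a at 6.30 and miR-141-3p at 10.31. In that with the least, control rat 292, they lay at 3.42, 4.58 and 9.12. The other miR-200 names went less with it, at r = 0.34 for miR-200b-3p, 0.23 for miR-429 and 0.19 for miR-200a-3p. The lowest correlations were with miR-378a-3p (-0.70), miR-3557-5p (-0.68) and miR-375-3p (-0.63). These points share libraries, and CPM of 1 library share a total.

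The 2 members did not go together from kidney to kidney. Over the 28 kidneys without rat 307, miR-205 and miR-203b-3p had r = -0.53 and rho = -0.54 (with rat 307, r = -0.14 and rho = -0.45). Without the 2 kidneys farthest from the median of miR-205, r was -0.50. Within controls r was -0.67 (n = 14) and within heat-stressed kidneys without rat 307 -0.42 (n = 14). In the 13 livers r was -0.10. The names most like miR-203b-3p in the 28 kidneys were miR-107-3p (r = 0.90), miR-103-3p (0.89), miR-101b-3p (0.83), miR-101a-3p (0.79) and miR-192-5p (0.79), and its lowest were miR-10a (-0.77), miR-31a-5p (-0.76) and miR-31b (-0.74). Thus miR-31 names stood at opposite ends for the 2 members. Between organs of the same rat, miR-205 had r = -0.30 for kidney and liver (11 rats) and -0.14 for kidney and heart (27 rats). Rat 280, with the highest liver value of 7.57, also had a high kidney value, 10.05, whereas control rat 293 had 10.08 in the kidney and 0 in the liver.

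**Figure D5:**
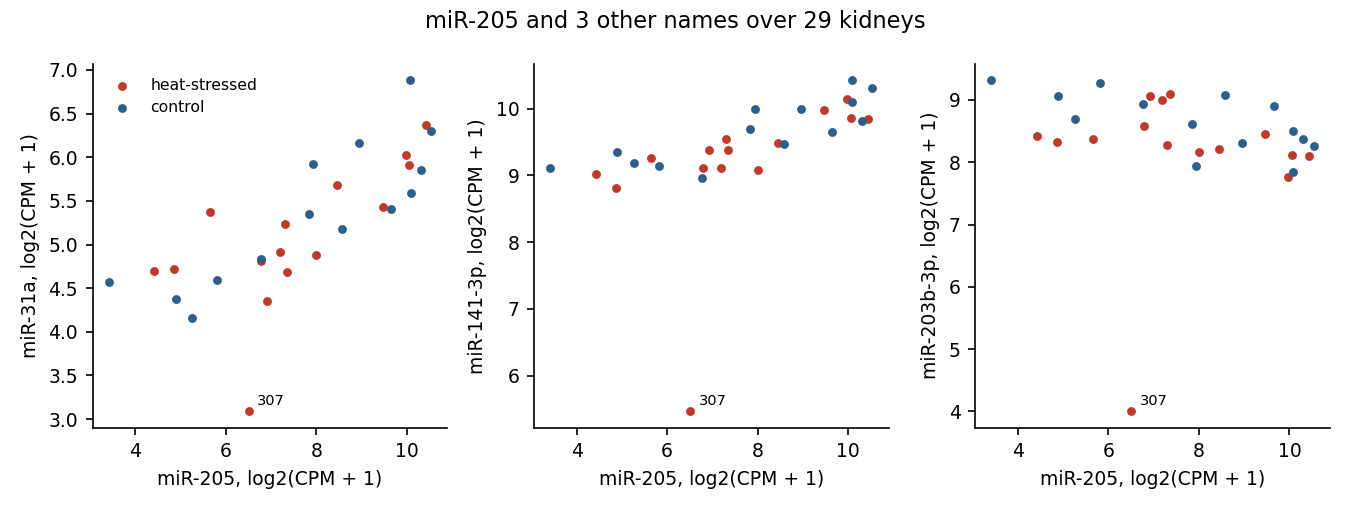
miR-205 (x axis) against miR-31a, miR-141-3p and miR-203b-3p (y axes), all in log2(CPM + 1), in 29 kidneys; red, heat-stressed, blue, control, with rat 307 marked. Without rat 307, r is 0.81, 0.82 and -0.53 over 28 kidneys, with both colours along each trend.

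As a group, the 8 squamous epithelium names had 0 calls by limma in the kidney at any time point. Among them miR-203a and miR-203b are not separate measures, and most of the 8 are names of the miR-203 locus or the miR-31 gene. The counts, medians and sums of this list thus rest on fewer than 8 separate measures. At Tc,max 2 had a higher mean in heat-stressed kidneys and 6 a lower one, with a median difference of -0.17 (all names -0.08). At 24 h it was 3 and 5 (median -0.07, all names -0.03). At 48 h all 8 were lower with rat 307 (median -0.89, all names -0.43), but without it 5 were higher and 3 lower (median 0.08, all names -0.01). Their summed level without rat 307 was 1624 to 2080 CPM in heat-stressed kidneys at 48 h, against 1673 to 3490 CPM in controls. At 48 h miR-31a had 4.48 ± 0.96 in heat-stressed kidneys (SD, n = 4) and 6.02 ± 0.75 in control kidneys (SD, n = 5). miR-141-3p had 8.29 ± 1.89 in heat-stressed kidneys and 9.94 ± 0.58 in control kidneys. Without rat 307 the heat-stressed kidneys (n = 3) had 4.95 ± 0.28 of miR-31a and 9.22 ± 0.28 of miR-141-3p, so that the differences from controls were -1.07 in place of -1.54 and -0.71 in place of -1.65. Their part in the 48 h value of miR-205 was not tested.

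The columns of the miR-203 locus went together in the kidney and across the step between tissues, and less within the liver and the heart. Over all 77 libraries the names most like miR-203b-3p were miR-203a-3p (r = 0.94), miR-203b-5p (0.91), miR-182 (0.90), miR-200b-3p (0.89) and miR-200a-3p (0.89), and those most like miR-205 were miR-200b-3p (0.81), miR-200a-3p (0.81), miR-3548 (0.81), miR-141-3p (0.81) and miR-10a (0.80). These values span the step between tissues, and libraries of 1 tissue share a lane. Within the 28 kidneys, miR-203b-3p had r = 0.73 with miR-203a-3p and 0.64 with miR-203b-5p. Within the 13 livers these were 0.42 and 0.14, and within the 35 hearts 0.30 and 0.30, at few reads. miR-203a-3p exceeded its antisense partner miR-203b-5p in all 77 libraries, and in the 29 kidneys by 1.11 ± 0.09 (SD), rat 307 included. miR-203a-3p also exceeded miR-203b-3p in 28 of 29 kidneys (0.62 ± 0.38, SD) and in 13 of 13 livers (1.63 ± 0.58, SD). The columns with no arm, miR-203a and miR-203b, held the same reads in 56 of 77 libraries and differed by at most 2 reads in the rest. They lay below miR-203b-3p in all 29 kidneys (by 0.74 ± 0.32 for miR-203b, SD) and above it in all 13 livers (by 2.43 ± 0.58, SD). In 12 of 13 livers miR-203b also lay above miR-203a-3p.

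In the heart both members were at the limit of detection, and neither was kept by the filter, which asked for 5 reads or more in each library of some condition, so that no fold change or test is given. miR-205 had a median of 2 reads in heat-stressed hearts (0 to 15) and 3 in control hearts (0 to 6). Of the 35 hearts 22 had 3 reads or fewer and 3 had none. Summed, these were 7.82 CPM in heat-stressed hearts (exact 95% Poisson interval 6.08 to 9.92, n = 18) and 5.78 CPM in control hearts (4.30 to 7.59, n = 17). The 15 reads came from the library labelled heart of rat 307, which stood apart, and are part of the heat-stressed sum. miR-203b-3p had a median of 1 read in heat-stressed hearts (0 to 11) and 1 in control hearts (0 to 16), with none in 12 of 35 hearts. Summed, it had 3.68 CPM in heat-stressed hearts (2.52 to 5.20) and 4.76 CPM in control hearts (3.43 to 6.43). miR-203a-3p, kept by the filter in the heart, had a median of 4.61 and lay above miR-203b-3p in 34 of 35 hearts. The planned test of the kidney effect against the heart effect was not made, since the heart gives none.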

How the data were processed

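Small RNA was sequenced from heart, kidney and liver of heat-stressed and control rats. The authors trimmed the reads (cutadapt 2.6, per the labels), mapped them to rat miRBase with perfect matches and deposited log2(CPM + 1) values of each name in 77 libraries; lung libraries and other livers were not analysed here. No column of values was left over (0). Groups came from the sample labels. Whole reads were recovered for 1820 of 1820 low values (100% within 0.05 of a read) and served for the filter, depth, counting intervals and limma's voom.

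A name was kept if some condition had 5 reads or more in each of its libraries (163 in the heart, 175 in the kidney, 176 in the liver). In the liver, miR-205 passed through the heat-stressed livers, where it is high, and the 24 h control; miR-203b-3p passed through that control library alone. limma 3.58.1 (R 4.3.3) fitted the kidney conditions together, with treat against a small fold change, a spread that follows the mean level, and adjustment over all names by Benjamini-Hochberg (FDR 0.05); differences between time points had no fold cutoff. Exact two-sided permutation tests were adjusted over all 175 names. The plan had been to adjust over the members' own tests only. This was changed because the members were chosen with earlier results known. Whether miR-203b-3p at Tc,max passes depends on this choice. limma was tried on simulated reads. Tables and permutations used pandas 2.3.3 and scipy 1.17.1 under Python 3.11.15, and plots matplotlib 3.10.9.

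The members and lists were chosen with earlier results of these data known. Named were both members, the listed names, and for each member the 5 names of highest r over all libraries and over the livers; names within the kidney were added after values were seen. Rat numbers pair organs of 1 rat, never heat-stressed with control: the deviations of heart and kidney of the same rat had a median correlation of 0.0709 over 27 pairs, against -0.0159 over 142 pairs of different rats. No replicate libraries were copies (172 pairs compared; the lowest chi-square over its degrees of freedom was 3.73). Nothing says that rats shared a litter or a cage. Alternatives were RLE scaling, no filter, log2(CPM + 5), no fold cutoff, only the compared groups, pooled controls, voom, the rat as a block, and leaving out each library or rat 307; those for the differences between time points, and the tissue order and the miR-31a and miR-141-3p levels without rat 307, were chosen after seeing the data.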

Additional observations from a re-analysis of the deposited data

Results flagged for a closer look

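In 4 of 28 groups of 4 to 6 libraries, 1 library lay far from the rest for a member, by Dixon's criterion; chance marks about 1 in 20 groups. miR-203b-3p in the heat-stressed kidney of rat 307 at 48 h lay at 4.00 (8 reads), against 8.27 to 9.0 in the 3 others. miR-205 in the control kidney of rat 292 at Tc,max lay at 3.42 (11 reads), against 8.58 to 10.30 in the 4 others. miR-203b-3p in the heat-stressed liver of rat 283 at Tc,max lay at 3.82 (2 reads), against 5.06 to 5.68 in the 5 others. miR-205 in the control heart of rat 321 at 24 h was listed at 0 (0 reads), against 2.53 to 3.74 in the 5 others. The liver and heart values rest on 2 reads or fewer.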

How the results depend on the processing

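Over the 264 alternative fits of the member tests by limma, 0 passed the FDR of 0.05; adjusted p ranged from 0.12 to 1. The sign of the miR-205 difference in the kidney at Tc,max turned to 0.017 under RLE scaling, 0.50 with pooled controls and 0.21 with voom, and with 1 library left out it ranged from -1.30 to 0.83, in the permutation test too. At 24 h the pooled controls turned it to -0.17; with 1 library left out it ranged from 1.28 to 2.37 at 24 h and from -3.02 to -1.85 at 48 h. Leaving out rat 307 turned miR-203b-3p at 48 h to 0.31, in the permutation test too, and its differences from Tc,max and 24 h to 0.95 and 0.67; with 1 library left out these 3 ranged from -1.36 to 0.31, from -0.71 to 0.95 and from -1.0 to 0.67. RLE scaling turned the difference from Tc,max to 0.11. Fitting only the compared groups called 1 name in the kidney at Tc,max, neither member, against 0, and without rat 307 limma called 1 name, again neither member, for the difference of 48 h from Tc,max. With the rat as a replicate block over heart and kidney, the miR-205 differences were -0.16, 1.68 and -2.76 at Tc,max, 24 h and 48 h (limma adjusted p = 0.996, 0.999 and 0.16), and the block changed no call. In the permutation test of miR-203b-3p at Tc,max the adjusted p ranged from 0.0579 to 0.126 with 1 kidney left out, and 0 of 10 passed. Such adjusted p depend on how many names tie near the smallest p allowed, so they cannot tell how firm this difference is. In the liver, the miR-205 difference was 2.81 under RLE scaling and 2.18 with log2(CPM + 5), and ranged from 2.05 to 3.14 with 1 liver left out; that of miR-203b-3p ranged from -0.29 to 0.08. The cause of these shifts was not tested beyond what each omission shows. With 7 reads at the median liver and 3 at the median heart, miR-205 differences of the size of counting error, SD 0.55 and 0.83, were not detectable there.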
